A study of Mus musculus with 8 samples.

Results

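Fast chemical signalling between neurons depends on a small group of genes that make, load and break down the transmitters GABA, glutamate and acetylcholine. Those genes were followed here in the arcuate nucleus, the part of the hypothalamus that holds the POMC and AgRP neurons controlling feeding. The set has 8 members, named by gene symbol. They are the GABA-synthesising enzymes Gad1 and Gad2, the vesicular GABA transporter Slc32a1, the GABA-degrading enzyme Abat, the vesicular glutamate transporters Slc17a6, Slc17a7 and Slc17a8, and the acetylcholine-synthesising enzyme Chat. Among the 13769 genes in the deposited tables of the 2 manipulations, 7 of the 8 members were found. Chat was not among them and was not analysed here for expression.

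RNA was sequenced from 8 libraries, each a pool of arcuate nuclei from 2 mice aged 4 months on the C57BL/6 background, with 2 libraries in each of 4 groups. The knockout males were Pomc-Cre;miR-17-92flox/flox, in which Cre driven by Pomc removes the miR-17-92 cluster, and their controls were male wild type littermates. The sponge females were Pomc-Cre;miR-7-sponge, in which an RNA that binds miR-7 is expressed in the Pomc-Cre lineage, and their controls were female wild type littermates. The labels call the controls wild type and list no Cre control, so an effect of Cre alone cannot be told apart from that of either manipulation. Each manipulation was made in 1 sex only. The tissue was dissected whole with a needle, so the libraries hold RNA of every arcuate cell type and of any neighbouring tissue taken along, while the manipulations act in the Pomc-Cre lineage. In such tissue, fewer cells of a type and less RNA per cell cannot be told apart.

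GABAergic neurons make GABA from glutamate with the glutamate decarboxylases GAD67, encoded by Gad1, and GAD65, encoded by Gad2, and pack it into synaptic vesicles with the transporter VGAT, encoded by Slc32a1. Glutamatergic neurons are recognised by the vesicular transporter they use. In the hypothalamus this is mostly VGLUT2, encoded by Slc17a6, while VGLUT1 (Slc17a7) predominates in the cortex and VGLUT3 (Slc17a8) is restricted to small populations. In the arcuate nucleus the AgRP neurons are GABAergic, POMC neurons include glutamatergic and GABAergic cells, and the adjoining ventromedial nucleus is rich in Slc17a6.

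MicroRNAs lower the level or the translation of transcripts whose 3′ untranslated region pairs with bases 2 to 8 of the microRNA, its seed. The microRNAs below are shown because they are those targeted in the study and because their seeds have a match in at least 1 member. Mature sequences are from RefSeq (GRCm38.p6), and the capitals mark the seed. miR-7a and miR-7b share a seed, as do miR-17 and miR-20a.
miR-7a-5p: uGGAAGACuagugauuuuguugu
miR-7b-5p: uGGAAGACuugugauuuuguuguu
miR-17-5p: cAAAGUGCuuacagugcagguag
miR-20a-5p: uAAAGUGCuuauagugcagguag
miR-92a-3p: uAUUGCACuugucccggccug

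The longest annotated 3′ untranslated region of each gene was searched on the transcript strand for the complement of each seed, in GENCODE M21 on GRCm38. The miR-7 match, GTCTTCC, was present in 14.1% of the 13561 genes searched and, among the members, only in Chat. The miR-17 and miR-20a match, GCACTTT, was present in 14.8% of genes and occurred in Gad2 at 2 places and in Slc17a7 and Slc17a8 at 1 place each. The miR-92a match, GTGCAAT, was present in 7.90% of genes and occurred in Slc32a1, Slc17a6 and Abat. The matches of miR-18a (GCACCTT, 9.37% of genes) and of miR-19a and miR-19b (TTTGCAC, 13.8% of genes), which are also members of the cluster, occurred in none of the 8. Gad1 held no match of any of these 5 seeds. The 3 miR-92a sites, the 2 sites in Gad2 and the single miR-7 site are printed with the match in capitals, because they lie in the members described most fully below or are the only match of their seed. These are matches of letters, not tested sites.
Slc17a6, miR-92a match at chr7:51669522-51669544 on the + strand: tgagattcccatcaaGTGCAATc
Slc32a1, miR-92a match at chr2:158615584-158615606 on the + strand: acccaaactcatcttGTGCAATg
Abat, miR-92a match at chr16:8621127-8621149 on the + strand: acccatcatgcatcaGTGCAATa
Gad2, first miR-17 and miR-20a match at chr2:22692569-22692591 on the + strand: aaaagttgtgtccatGCACTTTt
Gad2, second miR-17 and miR-20a match at chr2:22693135-22693157 on the + strand: tcagattgaggttgtGCACTTTa
Chat, miR-7 match at chr14:32408287-32408309 on the - strand: atcttccatagcacaGTCTTCCt

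Expression is given as FPKM, a level scaled to transcript length and to the number of fragments mapped in the library. The read totals behind the values are unknown, so no counting interval is given. The summed FPKM of the genes listed for a library lay between 141666 and 152741. All 8 libraries carried the arcuate neuropeptides, with Agrp between 14.6 and 28.3 FPKM, Npy between 38.2 and 83.1 and Pomc between 12.4 and 90.4. Of 10 markers of cortical and hippocampal glutamatergic neurons, Tbr1, Neurod6, Emx1 and Neurod2 were not listed in the tables. The other 6 were above 0 in every library and summed to 40.3 to 79.5 FPKM, most of it from Nrgn and Camk2a, which other neurons also express. Single libraries stood apart in markers of tissue next to the nucleus. The 3 of 6 choroid plexus markers that had values in all 8 libraries summed to 529 FPKM in wild type female replicate 2 and to 8.35 to 45.4 in the other 7 libraries. The 5 of 7 pituitary markers with values in all 8 summed to 338 in knockout replicate 1 and to 6.15 to 71.3 in the other 7.

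On the FPKM scale, which is corrected for transcript length, the members fell into an abundant and a scarce group. Averaged over the 8 libraries, Abat stood highest at 45.9 ± 19.5 FPKM (SD, n = 8), followed by Gad1 at 31.7 ± 4.53, Gad2 at 29.3 ± 11.8, Slc17a6 at 26.8 ± 9.85, Slc32a1 at 11.8 ± 7.83 and Slc17a8 at 0.789 ± 0.242. Neighbours in this order overlapped in every case. Abat exceeded Gad1 in 6 of 8 libraries, Gad1 exceeded Gad2 in 4, Gad2 exceeded Slc17a6 in 4, Slc17a6 exceeded Slc32a1 in 6, and Slc32a1 exceeded Slc17a8 in 7. Within single libraries Gad1 ranked above 91.7% to 95.4% of the listed genes and Abat above 93.6% to 98.3%. Slc17a8 ranked above only 3.52% to 14.7%, and Slc32a1 ranged from 11.6% to 89.8%.

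**Figure D1:**
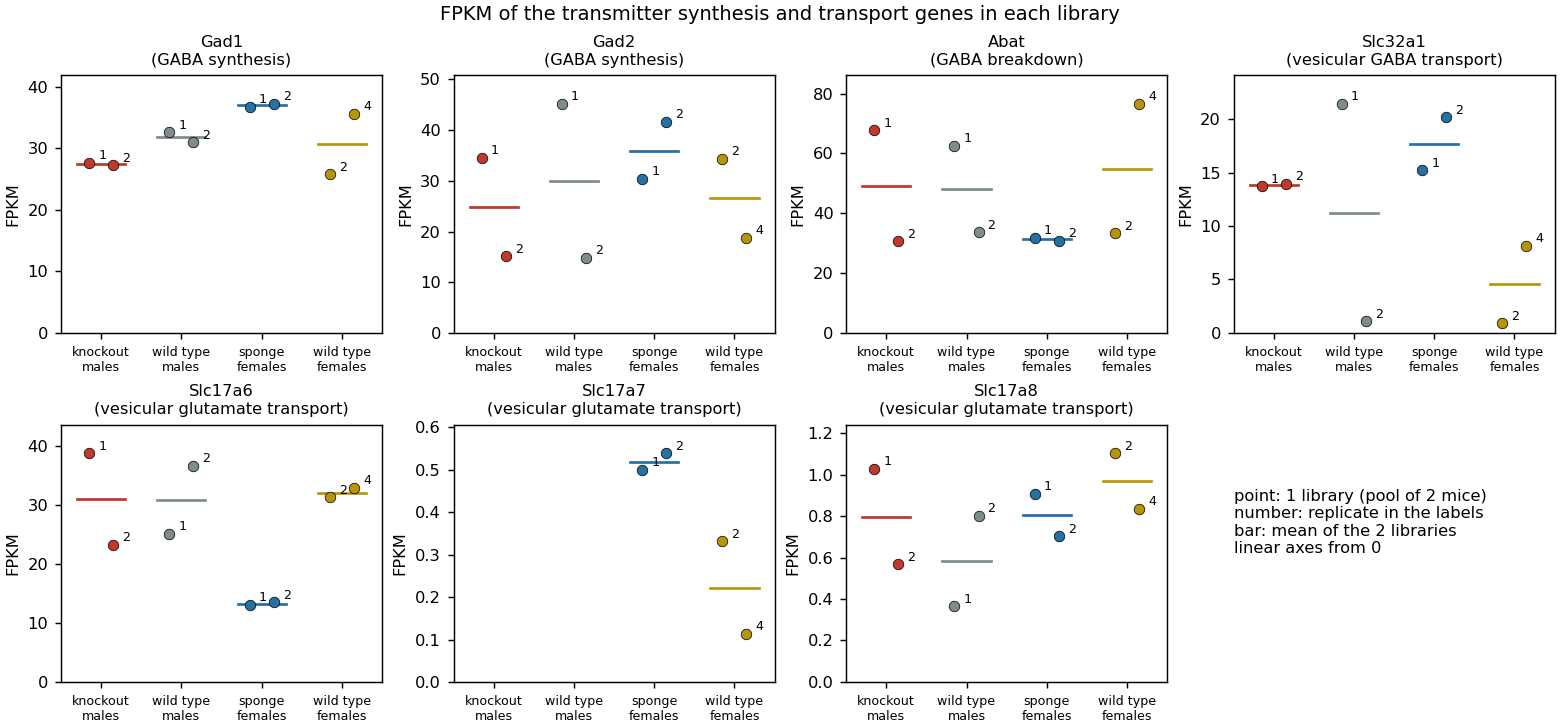
FPKM (linear axes from 0) of 7 members in each of the 8 libraries, where a point is 1 pooled library, its number the replicate and the horizontal bar the mean of the 2 libraries. Slc17a6 sits at 13.0 and 13.5 in the sponge females and at 23.2 or more in the other 6 libraries, while Slc32a1 is near 1 FPKM in 1 wild type male and 1 wild type female library.

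Gad1 (chr2:70553072-70602014, + strand) was the steadiest member at the gene level. It measured 27.6 and 27.2 FPKM in the knockout males, 32.6 and 30.9 in the wild type males, 36.8 and 37.2 in the sponge females, and 25.8 and 35.6 in the wild type females. The highest value was 1.44 times the lowest. The 2 libraries of a group lay close together except among the wild type females.

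Gad2 (chr2:22622205-22693874, + strand), the decarboxylase linked to GABA made at synaptic terminals, was as abundant on average but far more variable. It measured 34.5 and 15.1 FPKM in the knockout males, 45.1 and 14.8 in the wild type males, 30.3 and 41.6 in the sponge females, and 34.3 and 18.8 in the wild type females. The 3 lowest libraries belonged to 3 different groups, 1 in each of the knockout males, the wild type males and the wild type females. As a result the ratio of Gad1 to Gad2 FPKM moved between 0.722 and 2.09, both extremes being wild type male libraries.

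Slc32a1 (chr2:158610767-158615748, + strand) was the least steady of the abundant members. It measured 13.7 and 13.9 FPKM in the knockout males, 21.4 and 1.09 in the wild type males, 15.2 and 20.2 in the sponge females, and 0.894 and 8.17 in the wild type females. Thus 2 wild type libraries, male replicate 2 and female replicate 2, read about 1 FPKM, and the other 6 libraries read 8.17 or more. The 2 wild type male libraries differed 19.6-fold, and only 0.525% of the 13155 genes tested differed more between them on the log2(FPKM + 1) scale. The 2 wild type female libraries differed 9.14-fold, with 1.24% of 13157 genes differing more. Gad1, which is expressed in the same neurons, read 30.9 and 25.8 FPKM in those 2 low libraries. Slc32a1 has at most 2 exons in the annotation, against 17 for Gad1 and 16 for Gad2, and 6.13% of the listed genes have 1 or 2 exons. Female replicate 2 is also the library in which the 3 shared choroid plexus markers summed to 529 FPKM, while male replicate 2 had 20.9 for the same genes. The part of gene structure or of neighbouring tissue in these readings was not tested.

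Abat (chr16:8513429-8621568, + strand), the mitochondrial GABA transaminase, which is present in neurons and glia, measured 67.7 and 30.7 FPKM in the knockout males, 62.6 and 33.6 in the wild type males, 31.9 and 30.8 in the sponge females, and 33.3 and 76.5 in the wild type females. The values lay between 30.7 and 33.6 FPKM in 5 libraries and between 62.6 and 76.5 in 3, and each of the groups other than the sponge females had 1 library at the higher level.

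Slc17a6 (chr7:51622006-51671119, + strand) was the leading glutamate transporter. It measured 38.7 and 23.2 FPKM in the knockout males, 25.0 and 36.6 in the wild type males, 13.0 and 13.5 in the sponge females, and 31.2 and 32.9 in the wild type females. The sponge libraries were the 2 lowest of the 8. Slc17a8 (chr10:89574020-89621253, - strand) was scarce throughout, at 1.03 and 0.567 FPKM in the knockout males, 0.364 and 0.801 in the wild type males, 0.907 and 0.702 in the sponge females, and 1.10 and 0.836 in the wild type females. Slc17a7 (chr7:45163949-45176142, + strand) was listed in the sponge table only, at 0.499 and 0.539 FPKM in the sponge females and 0.331 and 0.113 in the wild type females. Its mean over these 4 libraries was below the minimum of 0.5 FPKM, so it was not tested at the gene level. Every gene listed for a comparison had a mean of at least 0.5 FPKM in either or both groups. Slc17a7 reached that in the sponge females only, so its higher values there follow from the listing.

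**Figure D2:**
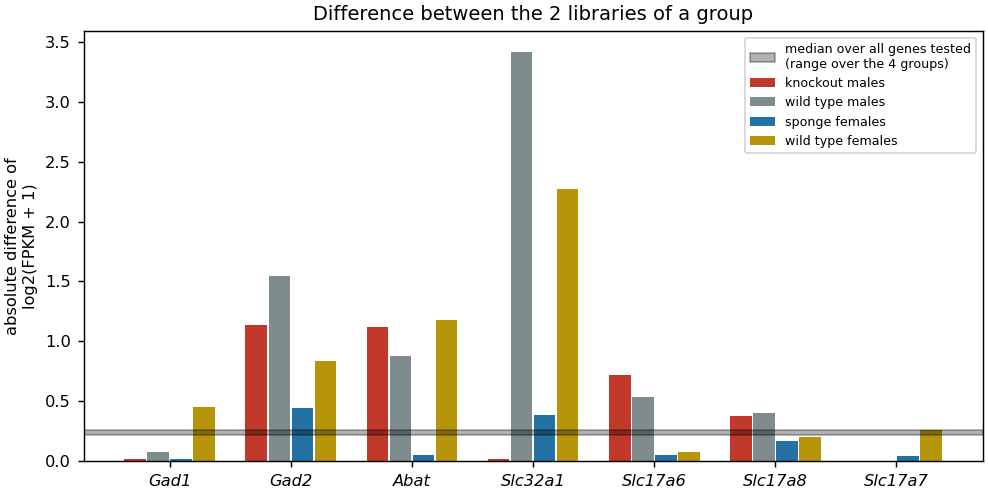
Absolute difference in log2(FPKM + 1) between the 2 libraries of each group, as bars coloured by group, with the grey band giving the range over groups of the median over all genes tested. Slc32a1 in the wild type groups stands far above the band, Gad2 exceeds it in every group, and Gad1 exceeds it only in the wild type females.

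The first comparison asked which members differ where miR-7 is bound by the sponge. Slc17a6 was lower in the sponge females, at 13.2 ± 0.329 FPKM (SD, n = 2) against 32.1 ± 1.18 in the wild type females, a ratio of means of 0.413. Its log2 fold change was -1.21 ± 0.14 (SE), with a 95% confidence interval of -1.60 to -0.83 and an adjusted p of 0.221 with limma, so it did not pass the threshold of 0.05. The p from limma before adjustment over 13157 genes was 0.000905, and 53 genes had a smaller one. The standard error of Slc17a6 was unusually small here, as 98.9% of the genes tested had a larger one. In the males the 2 libraries of a group differed more for this gene, 1.67-fold in the knockout and 1.46-fold in the wild type. The authors' deposited table gives this gene a p of 0.00127 and a q of 0.31. Slc32a1 was higher, at 17.7 ± 3.51 FPKM against 4.53 ± 5.15, with a log2 fold change of 2.15 ± 0.82 (confidence interval -0.11 to 4.42, adjusted p 1.00). Its size depends on the wild type female replicate 2 library: without it the log2 fold change was 1.01, and without replicate 4 it was 3.29.

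None of the 6 members tested was called in the sponge comparison, where 0.106% of all genes tested were called (7 higher and 7 lower). Of the 6, 1 had an unadjusted p under 0.05, against 3.76% of all genes, by limma. The groups did not overlap for 4 of 6 members, with Gad1 and Slc32a1 higher and Slc17a6 and Abat lower, whereas 30.8% of all genes tested did not overlap. The log2 fold changes were 0.28 ± 0.21 for Gad1 (-0.30 to 0.86), 0.47 ± 0.36 for Gad2 (-0.52 to 1.46), -0.67 ± 0.44 for Abat (-1.87 to 0.53) and -0.13 ± 0.17 for Slc17a8 (-0.60 to 0.35). For Gad1, Gad2, Abat and Slc17a8 the interval included 0. The median of the 6 log2 fold changes was 0.08, against -0.03 over all genes, and the median absolute change was 0.57 against 0.15.

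Some markers of other cells and of neighbouring tissue also differed between the sponge and wild type female libraries. The summed FPKM of the 6 of 7 ventromedial nucleus markers listed in that table was 36.4 to 59.9 in the sponge and 52.5 to 61.0 in the wild type females, so the sums overlapped. Of these 6 genes, 5 had a negative log2 fold change, as did 7364 of all 13157 genes tested. Nr5a1 (4.12 and 1.94 against 5.08 and 5.18 FPKM) and Fezf1 (6.04 and 4.58 against 8.6 and 8.62), the transcription factors that define the nucleus, did not overlap between groups. That is 2 of 6, near the 30.8% of all genes tested that did not overlap. The sums did not overlap for thalamic markers (6 genes, 50.6 to 55.9 against 67.1 to 67.8), astrocyte markers (9 genes, 517 to 526 against 627 to 647), oligodendrocyte markers (10 genes, 138 to 150.0 against 198 to 199.5), microglial markers (7 genes, 56.6 to 62.0 against 73.5 to 83.5) and pan-neuronal markers (20 genes, 1401 to 1423 against 1433 to 1615), each lower in the sponge females. No gene of these 6 lists was called, and 3 of the 6 thalamic genes had a positive log2 fold change. The sums overlapped for arcuate neuron, cortical and hippocampal, cholinergic, meningeal, choroid plexus, ependymal, endothelial and pituitary markers. The part of the differing markers in the value of Slc17a6 was not tested. With the values centred on the pan-neuronal genes, the log2 fold change of Slc17a6 was -1.11.

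**Figure D3:**
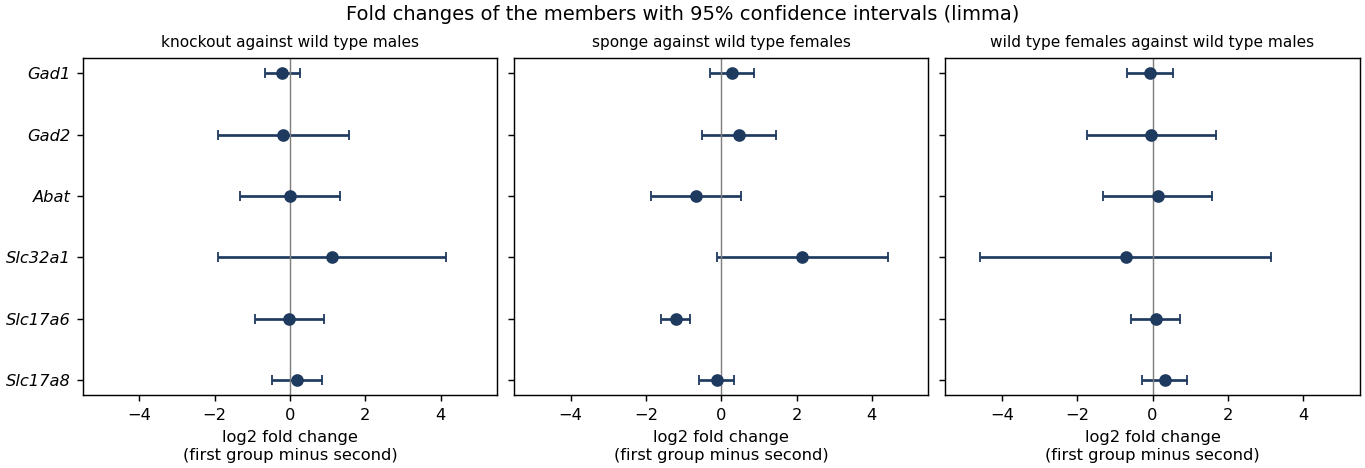
Log2 fold change in log2(FPKM + 1) of the 6 tested members in the 3 comparisons, with points for the limma estimate and bars for its 95% confidence interval. The interval of Slc17a6 in the sponge comparison (-1.60 to -0.83) excludes 0 before adjustment, and every other interval includes 0.

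In the knockout comparison, which asked which members differ where the miR-17-92 cluster is removed, none of the 6 members tested was called, against 0.0608% of all genes (3 higher and 5 lower). No member had an unadjusted p under 0.05 by limma, while 5.33% of genes did. Gad1 was the only member whose groups did not overlap, at 27.4 ± 0.266 FPKM in the knockout males against 31.8 ± 1.17 (SD, n = 2), and 38.5% of all genes did not overlap. Its log2 fold change was -0.20 ± 0.17 (-0.67 to 0.26, adjusted p 0.797). The p of Gad1 was 0.299 by limma before adjustment, while the authors' own test gave it a p of 0.0322 and a q of 0.679. Slc17a6, which held a miR-92a match, was at 31.0 ± 11.0 against 30.8 ± 8.18 FPKM, a log2 fold change of -0.01 ± 0.34 (-0.92 to 0.89). Abat and Slc32a1, the other members with that match, had log2 fold changes of -0.01 ± 0.50 (-1.34 to 1.32) and 1.11 ± 1.15 (-1.92 to 4.14). The value of Slc32a1 turned to -0.60 without wild type male replicate 2.

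Gad2, with 2 matches of the miR-17 seed, had a log2 fold change of -0.17 ± 0.66 (-1.92 to 1.57) in the knockout males, and Slc17a8, with 1 match, had 0.19 ± 0.25 (-0.48 to 0.85). The interval of Gad2 includes changes of more than 1.5-fold in both directions, so changes of that size were not excluded with 2 libraries a group. The median of the 6 log2 fold changes was -0.01, against 0.03 over all genes. Meningeal and fibroblast markers (10 genes) summed to 245 to 363 FPKM in the knockout males and 82.3 to 89.5 in the wild type males, and ependymal markers (6 genes) to 45.8 to 66.0 against 37.5 to 43.2. Arcuate neuron markers (11 genes) summed to 226 to 239.5 in the knockout males against 286 to 304, astrocyte markers (9 genes) to 548 to 553 against 596 to 603, and thalamic markers (6 genes) to 54.2 to 59.7 against 62.1 to 73.6. Of the cholinergic markers only Slc18a3 had values, and it was lower in the knockout males. It reached a mean of 0.5 FPKM in the wild type males only, so its direction follows from the listing. The sums overlapped for pan-neuronal, ventromedial, cortical and hippocampal, oligodendrocyte, choroid plexus, microglial, endothelial and pituitary markers. No gene of any of these lists was called. The part of the differing markers in the members' values was not tested.

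The wild type groups allowed a comparison of females with males. They are the control libraries of the other 2 comparisons, so its values are not independent of them. None of the 6 members tested was called, against 0.0686% of all genes (3 higher and 6 lower), and none had an unadjusted p under 0.05 by limma, against 4.61% of genes. Slc17a8 was the only member whose groups did not overlap, at 0.970 ± 0.189 FPKM in females against 0.583 ± 0.309 in males, a log2 fold change of 0.33 ± 0.22 (-0.28 to 0.93, adjusted p 0.920), and 34.9% of all genes did not overlap. The log2 fold change was 0.08 ± 0.24 for Slc17a6 (-0.58 to 0.74), -0.07 ± 0.22 for Gad1 (-0.67 to 0.54), -0.03 ± 0.63 for Gad2 (-1.74 to 1.68), 0.14 ± 0.53 for Abat (-1.31 to 1.58) and -0.72 ± 1.42 for Slc32a1 (-4.59 to 3.16).

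The difference between the knockout effect and the sponge effect was fitted over all 8 libraries for 13025 genes, of which 2, or 0.0154%, were called. The groups of this test differ in sex as well as in manipulation. No member was called. The difference was 1.2 ± 0.40 on the log2 scale for Slc17a6 (0.23 to 2.17, adjusted p 0.922 with limma), -0.48 ± 0.26 for Gad1 (-1.12 to 0.15) and -1.04 ± 1.64 for Slc32a1 (-5.00 to 2.93). The effect of the sponge on Slc17a6 was therefore not shown to differ from that of the knockout.

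The balance of glutamate to GABA vesicular transporter RNA was described by the ratio of Slc17a6 to Slc32a1 FPKM in each library. Vesicle loading itself was not measured. It was 0.856 and 0.668 in the sponge females, 34.9 and 4.03 in the wild type females, 2.82 and 1.67 in the knockout males, and 1.17 and 33.4 in the wild type males. The sponge libraries were the only 2 with more Slc32a1 than Slc17a6. The mean log2 ratio was -0.40 ± 0.25 in the sponge females and 3.57 ± 2.20 in the wild type females (SD, n = 2), a difference of -3.97 (exact permutation p 0.333, two-sided, which is the smallest p that 2 against 2 libraries allow). In the knockout comparison the difference was -1.53 (exact permutation p 1.00) and between wild type females and males it was 0.92 (exact permutation p 0.667). Both of the high ratios came from the 2 libraries with Slc32a1 near 1 FPKM.

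With the sum of Gad1 and Gad2 in place of Slc32a1, which takes those readings out, the ratio was 0.194 and 0.171 in the sponge females and 0.520 and 0.605 in the wild type females, a log2 difference of -1.62. The same ratio was 0.624 and 0.548 in the knockout males and 0.322 and 0.801 in the wild type males, whose libraries spanned the knockout values, and the log2 difference was 0.20.

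**Figure D4:**
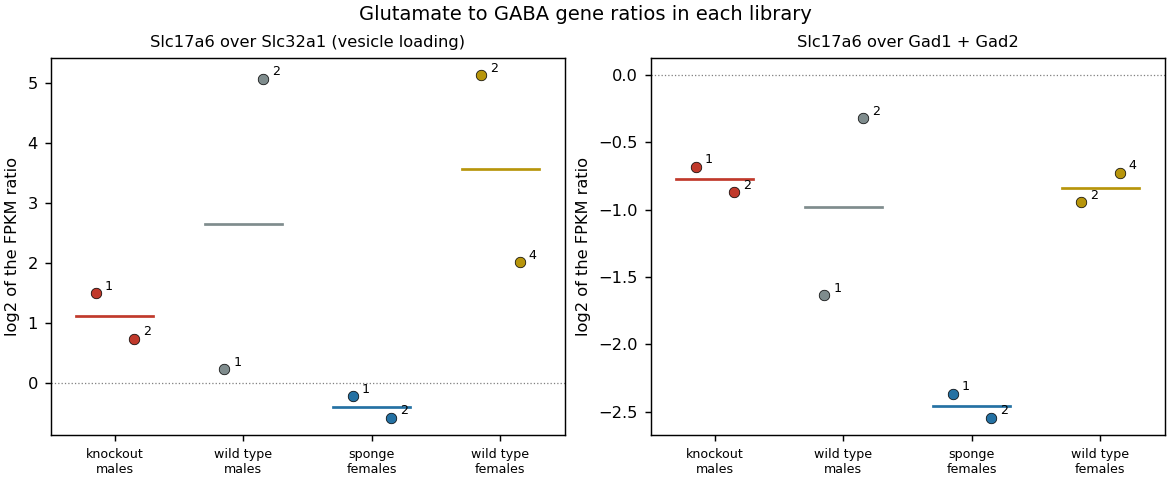
Log2 of the FPKM ratio of Slc17a6 to Slc32a1 (left) and to the sum of Gad1 and Gad2 (right) in each library, with a point per library and a bar for the mean of 2. The sponge females are the lowest group in both panels, and the spread of the wild type groups in the left panel, from 0.23 to 5.13, comes from the libraries with little Slc32a1.

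Of 5 pairs of members compared across the 8 libraries, of which 4 work on GABA and 1 joins the glutamate with the GABA transporter, none had a correlation that passed correction over the 5. For log2(FPKM + 1), Gad1 and Gad2 had a Pearson r of 0.17 (exact permutation p 0.669, Spearman rho 0.26, exact permutation p 0.536), and 0.19 without the 2 libraries farthest from the median of Gad1. Gad1 and Slc32a1 had an r of 0.46 (exact permutation p 0.264, rho 0.60, exact permutation p 0.132), which was 0.02 without those 2 libraries. Gad2 and Slc32a1 had an r of 0.39 (exact permutation p 0.328, rho 0.60, exact permutation p 0.132) and 0.27 without 2 libraries. Gad1 and Abat had an r of 0.07 (exact permutation p 0.851, rho 0.00, exact permutation p 1.00) and 0.11 without 2 libraries. Slc17a6 and Slc32a1 had an r of -0.55 (exact permutation p 0.125, rho -0.62, exact permutation p 0.115) and -0.45 without 2 libraries. The lowest adjusted p for r was 0.547. Taken as deviations from the group means, r was 0.73 for Gad1 and Abat, 0.68 for Gad1 and Slc32a1, 0.40 for Gad2 and Slc32a1, -0.24 for Gad1 and Gad2 and -0.45 for Slc17a6 and Slc32a1, values given without a test. Slc17a7 lacked values in the male libraries, so its pair with Slc17a6 was not computed.

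Among 6516 genes with a mean of at least 5 FPKM, those whose log2(FPKM + 1) tracked a member most closely over the 8 libraries were listed as a description, since a high r can be found by search among so many genes. For Gad1 they were Ddx46 (r 0.92), Timm8b (0.91) and Fbxo45 (0.91). For Gad2 they were Ngb (0.95), Ppdpf (0.94) and Kcnip3 (0.91). For Slc32a1 they were Chrnb2 (0.95), Zfp275 (0.95) and AI837181 (0.94), and for Slc17a6 they were Snx3 (0.98), Commd10 (0.98) and Bcas2 (0.96). No GABA or glutamate gene of the set was among them.

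The deposited transcript tables list 12 transcripts of the 7 members, and no member transcript was called in any comparison. In the sponge comparison 0% of transcripts were called by limma, 4.52% had an unadjusted p under 0.05, and 3 of the 11 member transcripts tested did. The main transcript of Slc17a6, Slc17a6-001, measured 16.5 and 16.0 FPKM in the sponge females and 40.2 and 42.3 in the wild type females (log2 fold change -1.29 ± 0.18, adjusted p 0.548). Gad1-001, the most abundant Gad1 transcript, measured 81.2 and 79.8 FPKM in the sponge females against 56.2 and 43.8 in the wild type females, without overlap (log2 fold change 0.69 ± 0.21, adjusted p 0.982). Gene values are not sums of their transcripts here, since Gad1-001 alone exceeds the gene's FPKM in every library. The 2 levels also differed within groups. Gad1-001 measured 71.3 and 46.7 FPKM in the wild type males, against 32.6 and 30.9 for the gene. In the wild type females the gene ran in the opposite order to Gad1-001, at 25.8 and 35.6.

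Abat-003, a minor transcript that ends upstream of the main Abat-001, did not overlap between the groups of any comparison. It measured 0.316 and under 0.001 FPKM in the knockout males, 3.15 and 3.49 in the wild type males, 2.45 and 3.61 in the sponge females, and 0.840 and 1.00 in the wild type females. Its log2 fold change was -1.91 ± 0.38 in the knockout comparison (adjusted p 0.612), where 0.00904% of all transcripts were called, 1.06 ± 0.34 in the sponge comparison (adjusted p 0.982) and -1.17 ± 0.32 between wild type females and males (adjusted p 0.709), where 0% were called and 5.77% had an unadjusted p under 0.05. The share of all transcripts whose groups did not overlap was 35.7%, 31.3% and 33.9% in these comparisons, and 5.83% had an unadjusted p under 0.05 in the knockout comparison. In the knockout comparison Abat-003 averaged 0.158 FPKM in the knockout males and 3.32 in the wild type males. It passed the minimum of 0.5 FPKM through the wild type males only, so its lower value in the knockout males follows from that filter. Abat-001, which carried most of the gene's signal, measured 48.5 to 123 FPKM.

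**Figure D5:**
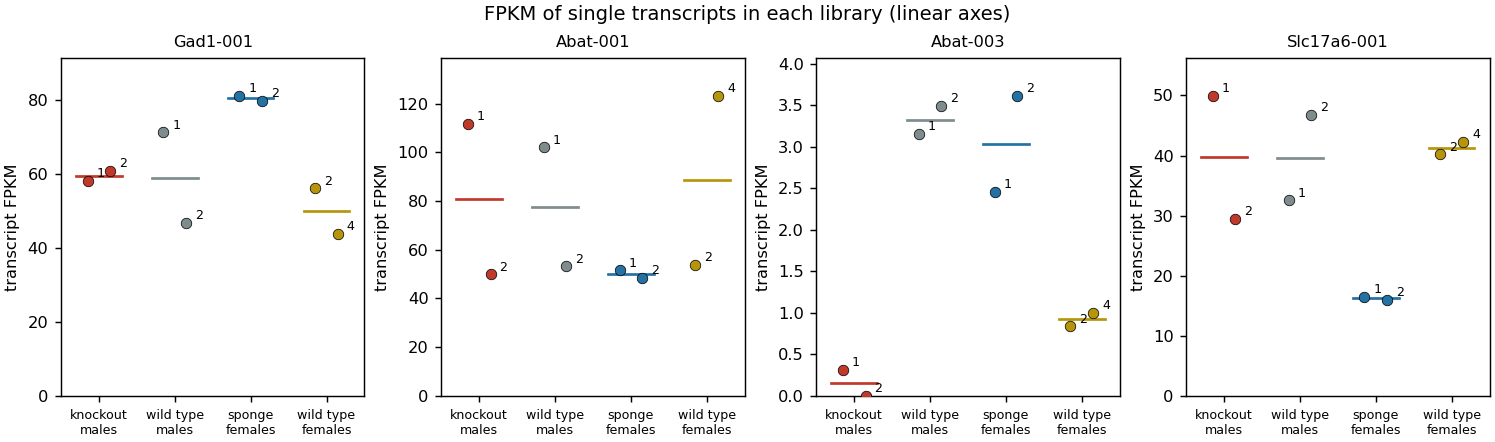
FPKM (linear axes from 0) of Gad1-001, Abat-001, Abat-003 and Slc17a6-001 in each library, with a point per library and a bar for the mean of 2. Abat-003 is near 0 in the knockout males and above 3 in the wild type males, at a level well below that of Abat-001 in every library. In the knockout comparison it passed the minimum of 0.5 FPKM through the wild type males only.

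A list of 31 genes for the synthesis, breakdown, recycling and transport of GABA, glutamate, glycine and acetylcholine set the members in context, and 29 of them were found. None was called in any comparison, against 0.0608% of all genes in the knockout, 0.106% in the sponge and 0.0686% in the wild type comparison. In the knockout comparison 14 of 28 tested genes had a positive and 14 a negative log2 fold change (median -0.01, against 0.03 over all genes). While 5.33% of all genes had an unadjusted p under 0.05 with limma, 2 of these 28 did. Those were the betaine and GABA transporter Slc6a12, at 1.41 and 1.00 FPKM against 0 and 0.083 in the wild type males (log2 fold change 1.08 ± 0.20, adjusted p 0.450), and the GABA transporter Slc6a13, at 5.64 and 3.04 against 1.23 and 0.967 (1.31 ± 0.30, adjusted p 0.653). Of these 2 groups, Slc6a12 reached a mean of 0.5 FPKM in the knockout males only, so its higher values there follow from the listing. Slc6a13 is itself a meningeal gene of the list whose sum was 245 to 363 FPKM in the knockout libraries. The part of meningeal tissue was not tested. The glutamine transporter Slc38a1 was at 25.0 and 9.67 FPKM against 31.7 and 32.2 (-0.98 ± 0.46, adjusted p 0.792).

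In the sponge comparison 18 of 25 tested genes had a negative log2 fold change (median -0.10, against -0.03 over all genes). Of all 13157 genes tested, 7364 were negative as well. None of the 25 had an unadjusted p under 0.05 with limma, against 3.76% of all genes. The smallest p-values belonged to the glutaminase Gls2 (-0.32 ± 0.16), the monoamine oxidase Maob (-0.39 ± 0.20), found in astrocytes, and the glycine transporter Slc6a9 (-0.43 ± 0.24), each with an adjusted p of 1.00. Between wild type females and males the astrocytic GABA transporter Slc6a11 was at 37.9 and 62.3 FPKM against 107 and 94.9 (-1.04 ± 0.30, adjusted p 0.906). The glutamine transporter Slc38a3 was at 6.46 and 6.81 against 5.18 and 4.70 (0.36 ± 0.16). Slc18a3 was at 0.264 and 0.559 against 1.2 and 0.627 (-0.43 ± 0.24). Slc18a3 reached a mean of 0.5 FPKM in the males only, so its direction follows from the listing.

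Slc18a3, which encodes the vesicular acetylcholine transporter and lies within the Chat gene, was the only gene listed of the cholinergic neuron markers. It measured 0.097 and 0 FPKM in the knockout males, 1.2 and 0.627 in the wild type males, 0.690 and 0.445 in the sponge females, and 0.264 and 0.559 in the wild type females. It was below the minimum for testing in both manipulations. In no comparison did both groups reach a mean of 0.5 FPKM for Slc18a3, so its direction follows from the listing in each. The choline transporter Slc5a7 was not listed in the tables. Of the broader acetylcholine genes, the acetylcholinesterase Ache measured 18.9 to 32.8 FPKM and the choline transporter-like gene Slc44a1 4.57 to 8.12 in the 8 libraries, and the butyrylcholinesterase Bche, listed for the 4 male libraries, 0.243 to 1.00.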

How the data were processed

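The labels' protocols describe oligo(dT) selection, a stranded dUTP kit and paired sequencing of 150 cycles. The tools were StringTie 1.2.3, HISAT2 2.0.4, cutadapt and FastQC, and the builds GRCm38 and mm10, per the submitters' processing notes. Program settings are not given in the sources used here. The authors deposited FPKM per gene and per transcript, which the series design text says came from Ballgown. Every gene listed for a comparison had a mean of at least 0.5 FPKM in either or both groups. A gene that is not listed was therefore not shown to be silent. The authors' deposited log2 fold change, fold change (a ratio), p-value and q-value were used only where named. The labels state that the second-mate raw file of sponge replicate 2 is missing, and how that library was processed is not stated.

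limma 3.58.1 (R 4.3.3) was fitted to log2(FPKM + 1) with an empirical Bayes trend on each comparison's 4 libraries, for genes of mean FPKM at least 0.5, with Benjamini-Hochberg adjustment over all of them. Genes under an adjusted p of 0.05 were called. Values after ± beside a fold change are standard errors, with confidence intervals of 95%. Tests are two-sided. The fit was tested on simulated data. Ratios and correlations used exact permutation tests over libraries. The labels do not say that pools come from separate litters, so a p-value covers only variation among these libraries, which may be technical. The genes named are the members, the 3 related genes of smallest p per comparison and the 3 genes most alike for 4 members. Members and lists were chosen with earlier results of these data known. Slc17a7 and Chat were not tested at the gene level. Alternatives were another pseudocount, no filter, rescaling, quantile normalization, centring on pan-neuronal genes, no trend, a fit on 8 libraries, summed transcripts, a replicate block and leaving out each library.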

Additional observations from a re-analysis of the deposited data

How the results depend on the processing

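No member passed the threshold under any alternative run, and the lowest adjusted p of a member was 0.172 with limma. Of the 18 member fold changes, 7 kept their sign under every alternative, among them all 6 of the sponge comparison. There the log2 fold change of Slc17a6 ranged from -1.25 to -1.18 when a library was left out and from -1.29 to -1.11 otherwise, with adjusted p from 0.225 to 0.716. The other sponge values were less steady: leaving out 1 library gave 0.053 to 0.50 for Gad1, 0.049 to 0.89 for Gad2, 1.01 to 3.29 for Slc32a1, -0.22 to -0.028 for Slc17a8 and -1.26 to -0.086 for Abat, and summed transcripts gave 0.62 for Gad1 (adjusted p 0.947). In the knockout comparison the log2 fold changes ranged, on leaving out 1 library, from -0.95 to 0.60 for Gad2, -0.60 to 2.82 for Slc32a1, -0.37 to 0.34 for Slc17a6, -0.015 to 0.39 for Slc17a8 and -0.57 to 0.55 for Abat. Gad1 turned to 0.027 with summed transcripts, and Slc17a6 to 0.0076 and Abat to 0.011 with centring on pan-neuronal genes. Between wild type females and males the ranges on leaving out 1 library were -0.29 to 0.16 for Gad1, -0.80 to 0.74 for Gad2, -2.43 to 0.99 for Slc32a1, -0.19 to 0.34 for Slc17a6 and -0.45 to 0.72 for Abat. The cause of these reversals was not tested.

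The log2 ratio of Slc17a6 to Slc32a1 ranged, on leaving out 1 library, from -5.53 to -2.41 in the sponge comparison, from -3.95 to 0.89 in the knockout comparison, where the positive value was that without wild type male replicate 2, and from -1.496 to 3.34 between wild type females and males. With Gad1 plus Gad2 below the line it was 0.20 in the knockout comparison. The r of Gad1 and Gad2 was -0.24 for deviations from group means and 0.52 with centring on pan-neuronal genes, against 0.17, and that of Gad1 and Abat was 0.73 for deviations, against 0.07.

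Genes called over the whole table in the knockout comparison numbered 2 with a pseudocount of 0.1, against 8, and 0 with quantile normalization, centring on pan-neuronal genes or summed transcripts. The sponge count of 14 was 2 in the fit on 8 libraries and 6 with summed transcripts, and the count of 9 between wild type females and males was 3 and 1. On leaving out any 1 library each count was 0 by limma, with 636 to 1134 genes at an unadjusted p under 0.05. A fit with 3 libraries has 1 residual degree of freedom and assumes that the lone library varies like the others.

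With a replicate block in the knockout comparison 0 genes were called by limma, no member among them, and 582 had an unadjusted p under 0.05. The block lowered the standard error of Gad2 from 0.66 to 0.25 and of Slc32a1 from 1.15 to 0.92. It raised that of Gad1 from 0.17 to 0.23, of Slc17a6 from 0.34 to 0.40 and of Slc17a8 from 0.25 to 0.29. The deviations of same-numbered libraries had a correlation of 0.00122 over 13155 genes, so the numbers were not taken to pair the libraries. Among the members, Gad1, Gad2 and Abat read higher in replicate 1 of both male groups. Slc32a1, Slc17a6 and Slc17a8 ran in opposite orders in the knockout and wild type males. No paired analysis was possible because the groups shared fewer than 2 replicate numbers in the other comparisons. With 2 libraries a group and unknown depth, changes within the wide intervals given for Slc32a1, Gad2 and Abat were not excluded.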

Other observations

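The following values were picked out after they were seen. Slc1a2, the main glutamate transporter of astrocytes, measured 37.2 FPKM in knockout replicate 2 and 38.1 in wild type male replicate 2, and 125 to 170 in the other 6 libraries. Those are the 2 libraries in which Gad2 read lowest, at 15.1 and 14.8 FPKM. Wild type female replicate 4, where Gad2 was next lowest at 18.8 FPKM, had the highest Slc1a2, at 170. The astrocytic glutamate transporter Slc1a3 was even across all 8 libraries, at 66.3 to 81.1 FPKM. Slc1a4, a transporter of neutral amino acids, measured 7.07 to 24.7 FPKM and Aldh5a1, which acts after Abat in GABA breakdown, 6.70 to 23.7. Timm8b, a mitochondrial import gene whose values resembled those of Gad1, ranged from 0.322 to 120 FPKM, whereas Gad1 itself ranged from 25.8 to 37.2.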
